A study of Mus musculus with 46 samples.

Results

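The meiotic recombination genes described here are Prdm9, Zcwpw1, Spo11, Mei1, Hormad2, Dmc1, Msh4, Msh5 and Mlh3, taken by symbol from the annotation of a mouse whole-transcript array. All 9 were found among the 19938 genes measured, each through 1 probe set. Meiosis pairs and exchanges homologous chromosomes: a topoisomerase-like enzyme cuts both DNA strands at chosen sites, a recombinase carries the cut ends into the homologous chromosome, and mismatch-repair relatives turn part of the joined molecules into crossovers. Most genes of this machinery are used in germ cells and are silent in somatic tissues, where several of their promoters are methylated. Spermatogonial stem cells divide by mitosis, and their descendants enter meiosis after differentiating.

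The arrays cover 23 cell lines in 8 groups, with 2 cultures of each line averaged, so that n counts lines. Multipotent germline stem cells (mGS) are pluripotent lines derived from germline stem (GS) cells, the cultured form of spermatogonial stem cells. The mGS groups were spontaneous mGS (lines 1 and 2), Dnmt mGS (lentiviral knock-down of Dnmt1 and p53), Dmrt mGS (lentiviral knock-down of Dmrt1 and p53), Sox2 mGS (lentiviral Sox2 with p53 knock-down) and Oct4 mGS (lentiviral Oct4 with p53 knock-down), with 3 lines in each induced route. GS cells (3 lines) carried no listed treatment, induced pluripotent stem (iPS) cells (lines 1, 2 and 5) had received Oct4, Sox2, Klf4 and c-myc by retrovirus, and embryonic stem (ES) cells were represented by R1, B6-6 and BRC1. All lines but the ES lines carried the strain label DBA/2 with a GFP transgene. The description of culture 2 of R1 names another ES line than its title and cell type do, and the title was followed. The ES lines were a hybrid of 129 substrains (R1), C57BL/6J (B6-6) and a cross of B6, DBA2 and 129 (BRC1), so that strain and cell type cannot be told apart in a comparison with ES. Pluripotent lines grew on fibroblast feeders with serum and LIF, and GS cells on the same kind of feeder in serum-poor medium with GDNF and FGF2, so that medium and cell type also coincide in a comparison with GS. No induced route lacks the p53 knock-down, and p53 itself was not analysed here. Levels are probe set intensities, which are not comparable between genes. Intensities at or under 161.1, the 95th percentile of 1027 olfactory receptor genes, are called background here.

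Most markers of GS and of pluripotent cells went with the labels. Of 10 GS markers, limma called 9 higher and 1 lower in GS than in ES, with the same counts against iPS. Each mGS group had 1 of the 10 higher than GS. All 8 pluripotency markers were called lower in GS than in ES and iPS. Of these 8, limma called 4 lower in Sox2 mGS and 1 lower in Oct4 mGS than in iPS (9.22% and 3.43% of all genes). It called 0 in the other mGS groups against iPS. Gfra1, Id4, Etv5, Ddx4 and Dazl, among the GS markers, were above background in all 8 groups. Pou5f1, Sox2, Zfp42 and Dppa5a, among the pluripotency markers, were above background in GS. Zbtb16, a transcription factor of undifferentiated spermatogonia, averaged 11650 in GS, against 119.7 to 141.8 in the other 7 groups. Nanog, a core pluripotency factor, averaged 47.3 in GS, against 3495 to 6457 elsewhere. Of 7 spermatocyte markers, 7 were above background in GS (geometric mean 473 to 563 per line, with Sycp1 at 2676 on average) and 4 or 5 in each other group (146 to 286). Of 5 spermatid markers, Tnp2, Prm1 and Prm2 were above background and Acrv1 and Tnp1 at background in all 8 groups (123 to 147). Of 7 testis somatic markers, Sox9, Gata4, Wt1 and Acta2 were above background and Amh, Star and Cyp17a1 at background in all 8 groups (154 to 331). The part of such cells in the results was not tested. Dnmt1 stood at 620 and 647 in Dnmt mGS 1 and 3 but at 2752 in the line labelled Dnmt mGS 2, inside the range of 1934 to 2772 seen over the 17 pluripotent lines of other labels. Dmrt1 stood at 191 to 554 in Dmrt mGS, against 3379 to 4220 in GS and 151 to 665 in the remaining 17 lines, so that the array does not set the Dmrt1 knock-down lines apart from other pluripotent lines. Fibroblast transcripts differed strongly between routes: the feeder score, the geometric mean intensity of 8 fibroblast markers, was 320 and 1080 in the spontaneous mGS lines, 338 to 1640 in the Dnmt mGS lines, 378 to 1130 in the Dmrt mGS lines, 1860 to 2670 in the Sox2 mGS lines, 888 to 2050 in the Oct4 mGS lines, 254 to 933 in GS, 263 to 396 in iPS and 395 to 1650 in ES. In such bulk samples, fewer cells of a type and less RNA per cell cannot be told apart.

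The 9 genes fell into 4 patterns of presence. Prdm9 exceeded the background level in 0 of 23 lines. Spo11, Mei1 and Msh4 were above background in 3 lines, the 3 GS lines. Msh5 was above background in 10 lines, by a narrow margin outside GS, and Hormad2 in 11 lines. Zcwpw1, Dmc1 and Mlh3 were above background in all 23 lines.

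Against the pluripotent references, GS cells held more of most of these transcripts. In GS against ES, 7 of the 9 genes passed limma's adjusted p of 0.05, 6 higher and 1 lower in GS, where 43.2% of all genes passed (26% higher, 17.2% lower). In GS against iPS, 9 of 9 passed, 8 higher and 1 lower, where 54% of all genes passed (35.5% higher, 18.5% lower). The median log2 difference over the 9 genes was 1.07 for GS minus ES and 1.23 for GS minus iPS, against 0.091 and 0.166 over all genes. Prdm9 is among the calls although it was at background in every group, and its fitted differences are not read as a change.

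Each mGS group was also compared with GS, the cells these lines came from, and these 5 comparisons share the 3 GS lines. Spontaneous mGS had 1 gene higher and 8 lower, where 43.1% of all genes passed (16.2% higher, 26.9% lower). Dnmt mGS had 1 higher and 5 lower, where 49.1% passed (19.1% higher, 30% lower). Dmrt mGS had 1 higher and 5 lower, where 41.6% passed (17.6% higher, 24.1% lower). Sox2 mGS had 0 higher and 8 lower, where 44% passed (19.4% higher, 24.6% lower). Oct4 mGS had 1 higher and 7 lower, where 42.9% passed (20.2% higher, 22.6% lower). The gene on the higher side was Mlh3 in each of the 4 groups that had one, and Spo11, Mei1, Msh4, Msh5 and Zcwpw1 were lower in all 5 groups. Prdm9 is counted among the lower genes in spontaneous, Sox2 and Oct4 mGS, although it was at background in every group, and is not read as a change. The median log2 difference over the 9 genes was −1.18, −0.797, −0.852, −0.991 and −0.918 in spontaneous, Dnmt, Dmrt, Sox2 and Oct4 mGS minus GS, against −0.13 to −0.036 over all genes.

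**Figure D1:**
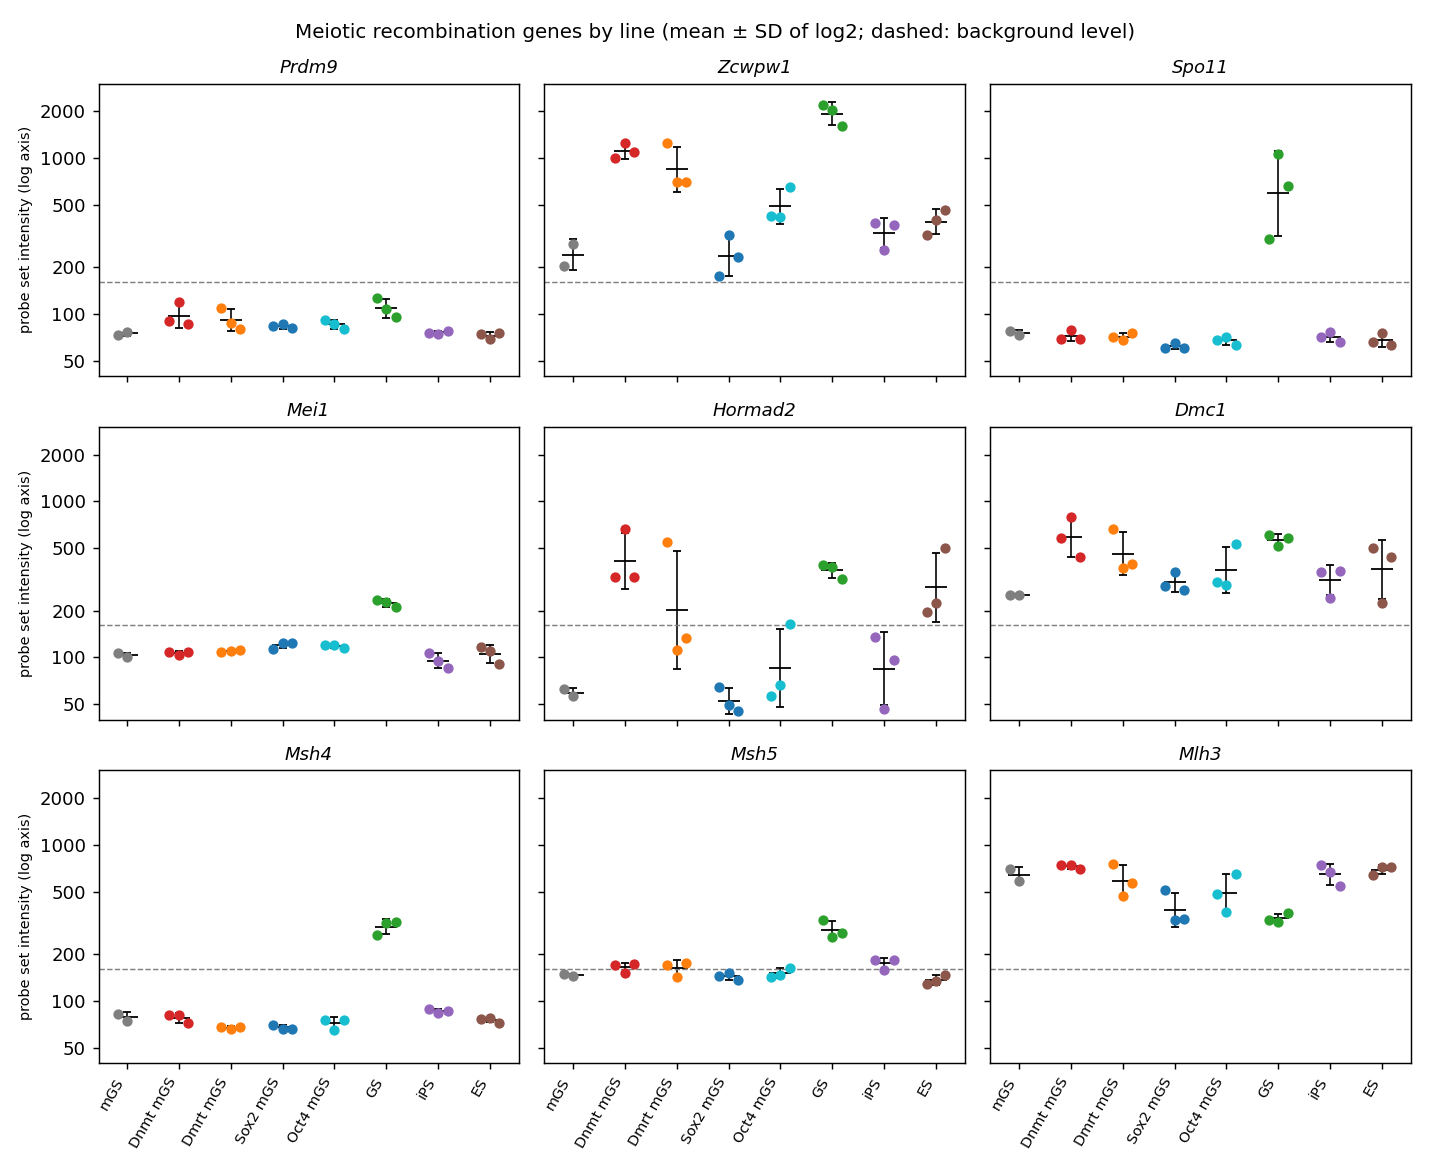
Probe set intensity (log axis) of the 9 genes in each of 23 lines, grouped by cell type, with points for lines, bars for the mean ± SD of log2 values and a dashed line at the background level of 161.1. Spo11, Mei1 and Msh4 rise above the dashed line in the 3 GS lines and in no other line, while Zcwpw1, Dmc1 and Mlh3 lie above it in all 23.

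Prdm9 and Zcwpw1 act at the choice of break sites. Prdm9 is a histone methyltransferase whose zinc fingers bind the DNA of recombination hotspots, and Zcwpw1 is a reader that binds the histone marks Prdm9 writes. Prdm9 (chromosome 17, 15543072 to 15564374 in GRCm38.p6) ranged from 68.9 in ES BRC1 to 126.3 in GS 1, and no line reached the background level. No fold is given for it.

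Zcwpw1 (chromosome 5, 137787157 to 137822621) had its highest levels in GS and intermediate levels in the knock-down routes. Its intensity was 204 and 281.5 in the spontaneous mGS lines. The knock-down routes had 999, 1252 and 1091 (Dnmt mGS 1 to 3) and 1245, 698.9 and 698.2 (Dmrt mGS 1 to 3), and the factor routes had 176, 320 and 232 (Sox2 mGS) and 425.5, 420.5 and 655 (Oct4 mGS). The gene read 2197, 2038 and 1598 in GS, 382, 257 and 373 in iPS, and 467, 321 and 399 in ES R1, B6-6 and BRC1. The GS lines lay above every other line, and the Dnmt mGS and Dmrt mGS lines lay above every remaining line. Among the remaining groups, the range of ES overlapped those of Oct4 mGS and iPS. The ranges of iPS, spontaneous mGS and Sox2 mGS overlapped each other.

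Zcwpw1 was 4.93-fold higher in GS than in ES (log2 2.30 ± 0.26 SE, adjusted p = 1e-06) and 5.81-fold higher in GS than in iPS (2.54 ± 0.26, adjusted p = 2.8e-07). It was 8.04-fold lower in spontaneous mGS than in GS (−3.01 ± 0.29, adjusted p = 2.2e-07) and 8.19-fold lower in Sox2 mGS than in GS (−3.03 ± 0.26, adjusted p = 3.9e-08). The fitted drop was smaller in Oct4 mGS (3.94-fold, −1.98 ± 0.26, adjusted p = 6.2e-06), in Dmrt mGS (2.28-fold, −1.19 ± 0.26, adjusted p = 0.0011) and in Dnmt mGS (1.74-fold, −0.80 ± 0.26, adjusted p = 0.017). The Dnmt mGS call rested on single lines: adjusted p was 0.056 without GS 1, 0.053 without GS 2 and 0.06 without Dnmt mGS 1, with log2 differences of −0.702, −0.757 and −0.721.

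Against iPS, Zcwpw1 passed in both knock-down routes. It was 3.34-fold higher in Dnmt mGS than in iPS (1.74 ± 0.26, adjusted p = 0.0015) and 2.55-fold higher in Dmrt mGS than in iPS (1.35 ± 0.26, adjusted p = 0.018). The Dmrt mGS call was lost without iPS 1 (1.45, adjusted p = 0.066), without iPS 2 (1.17, adjusted p = 0.13), without Dmrt mGS 1 (1.07, adjusted p = 0.098) and in a fit of the 6 lines compared alone (adjusted p = 0.12). In Oct4 mGS against iPS the difference was 0.56 (95% interval 0.014 to 1.11, adjusted p = 0.14), and in Sox2 mGS against iPS −0.496 (−1.04 to 0.05, adjusted p = 0.17).

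Spo11 is the enzyme that makes the double-strand breaks, and Mei1 is needed in mouse for their formation. Spo11 (chromosome 2, 172977379 to 172993576) stood at 304, 1054 and 662 in GS 1 to 3. In the other 20 lines it lay between 60.2 and 78.6, all at background. GS 2 thus had more than 3 times the level of GS 1 by intensity, and the SD of log2 over the GS lines was 0.907, the widest of any gene of the set within GS. The GS mean was at least 3.7-fold above background, and the adjusted p was between 1.8e-08 and 2.7e-07 in the 7 comparisons of GS with another group.

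Mei1 (chromosome 15, 82070074 to 82126817) was far more even. It stood at 233, 228 and 210.3 in GS, against 86.1 to 124 in the 20 other lines. The groups did not overlap, and the GS mean was at least 1.39-fold above background (adjusted p 3.2e-09 to 2e-07 in the 7 comparisons with GS). Small differences of Mei1 between groups that were both at background passed the test in Sox2 mGS against iPS (adjusted p = 0.013) and Oct4 mGS against iPS (adjusted p = 0.029), and they are not read as expression.

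Hormad2 belongs to the chromosome axis, where in mouse it marks chromosomes that have not paired and takes part in their surveillance. Hormad2 (chromosome 11, 4345801 to 4441198) stood at 62.6 and 56.6 in spontaneous mGS. It read 328, 668.5 and 328 in Dnmt mGS 1 to 3 and 548, 112 and 133 in Dmrt mGS 1 to 3, against which the factor routes had 65, 49.3 and 45.5 (Sox2 mGS) and 57, 67 and 164 (Oct4 mGS). The remaining lines had 392, 383 and 319.5 in GS, 134, 47 and 97 in iPS, and 506, 195 and 225 in ES R1, B6-6 and BRC1. All Dnmt mGS lines reached or exceeded the lowest GS line, the spontaneous and Sox2 mGS lines were at background, and within Dmrt mGS line 1 stood alone above background.

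Hormad2 was at least 2.25-fold lower than GS in spontaneous mGS (−2.61 ± 0.61, adjusted p = 0.002), in Sox2 mGS (−2.79 ± 0.54, adjusted p = 0.00037) and in Oct4 mGS (−2.09 ± 0.54, adjusted p = 0.0043). With the feeder score as a covariate, adjusted p was 0.057 for Sox2 mGS (−1.50) and 0.082 for Oct4 mGS (−1.18) against GS. In Dnmt mGS minus GS the difference was 0.196 (95% interval −0.943 to 1.34, adjusted p = 0.78), which spans a change of either sign. In Dmrt mGS minus GS it was −0.852 (−1.99 to 0.287, adjusted p = 0.23), and −1.58 (adjusted p = 0.014) without Dmrt mGS 1.

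Set against iPS, Hormad2 was at least 2.58-fold higher in Dnmt mGS (2.29 ± 0.54, adjusted p = 0.018). This call was lost without iPS 2 (1.87, adjusted p = 0.11), Dnmt mGS 1 (2.46, adjusted p = 0.052) or Dnmt mGS 2 (1.95, adjusted p = 0.078), and all 3 values kept the sign. GS had at least 2.25-fold more than iPS (2.10 ± 0.54, adjusted p = 0.0035), whereas GS minus ES was 0.37 (−0.769 to 1.51, adjusted p = 0.61). Between the pluripotent references, Hormad2 averaged 84.9 in iPS, at background in all 3 lines, and 280.9 in ES, a ratio of at least 1.74-fold, with an adjusted p of 0.18, and of 0.019 once the feeder score was a covariate.

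Dmc1 is the meiosis-specific recombinase, which coats the resected ends and searches for the homologous chromosome. Dmc1 (chromosome 15, 79561497 to 79605159) stood at 250.6 and 251.7 in spontaneous mGS. Knock-down lines had 587, 799.6 and 441 (Dnmt mGS) and 667, 377 and 395 (Dmrt mGS), and factor lines 289, 354 and 272 (Sox2 mGS) and 302.5, 293 and 536 (Oct4 mGS). Levels were 606, 520.5 and 586 in GS, 352.5, 242 and 357.5 in iPS, and 438, 506 and 224 in ES R1, B6-6 and BRC1. Unlike Spo11 it was present in every line, and the line labelled Dnmt mGS 2 and Dmrt mGS 1 held more of it than any GS line.

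Dmc1 was 1.82-fold higher in GS than in iPS (0.866 ± 0.302, adjusted p = 0.022), and this call was lost without iPS 2 (0.683, adjusted p = 0.1), GS 1 (0.822, adjusted p = 0.054) or GS 3 (0.846, adjusted p = 0.059). GS minus ES was 0.633 (−0.002 to 1.27, adjusted p = 0.1), and 0.864 with an adjusted p of 0.042 without ES B6-6. Spontaneous mGS had 2.27-fold less than GS (−1.18 ± 0.34, adjusted p = 0.0088), with an adjusted p of 0.052 without mGS 2 (−1.19). In Sox2 mGS the gene was 1.88-fold lower than in GS (−0.912 ± 0.302, adjusted p = 0.02), a call that was lost without GS 1, GS 3, Sox2 mGS 1 or Sox2 mGS 3 (−0.892 to −0.834, adjusted p 0.052 to 0.068) and with the feeder score as a covariate (−0.247, adjusted p = 0.66).

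The remaining routes did not pass for Dmc1 against GS. The differences were 0.053 in Dnmt mGS (−0.582 to 0.689), −0.298 in Dmrt mGS (−0.934 to 0.337) and −0.654 in Oct4 mGS (−1.29 to −0.018, adjusted p = 0.091). Oct4 mGS 3 carried the highest level of its route, and without it the Oct4 mGS difference was −0.937 (adjusted p = 0.021). Dnmt mGS minus iPS was 0.92 ± 0.302 with an adjusted p of 0.075, and passed without Dnmt mGS 3 (1.13, adjusted p = 0.04) and with the feeder covariate (1.25, adjusted p = 0.0066).

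**Figure D2:**
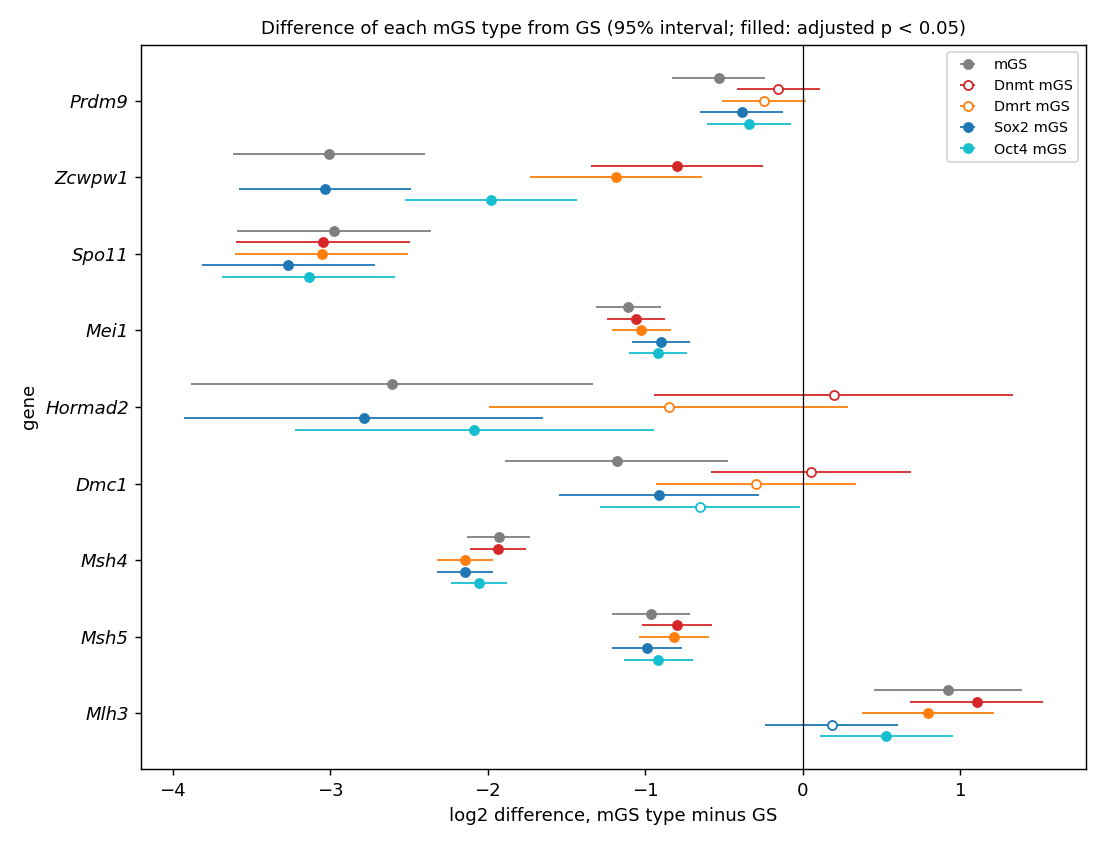
Log2 difference of each mGS type minus GS for the 9 genes (points) with 95% intervals (lines), filled where limma's adjusted p was under 0.05. Spo11, Mei1, Msh4 and Msh5 lie left of 0 in all 5 mGS types, Hormad2 and Dmc1 lie near 0 in Dnmt mGS (0.196 and 0.053), and Mlh3 lies right of 0.

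Msh4 and Msh5 form the MutSγ heterodimer that stabilises joined recombination intermediates. Msh4 (chromosome 3, 153857141 to 153906138) stood at 263, 314 and 322 in GS, against 64.8 to 88.3 in the other 20 lines, all of them at background. It was at least 1.85-fold higher in GS than in every other group (adjusted p 1e-12 to 3e-11). Its partner Msh5 (chromosome 17, 35028605 to 35046997) stood at 331, 256 and 273 in GS, against 128 to 183 in the other lines, so that the groups did not overlap.

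Msh5 was 2.10-fold higher in GS than in ES (1.07 ± 0.11, adjusted p = 1.9e-07), at least 1.77-fold with the ES mean of 135.9 at background. It was 1.63-fold higher in GS than in iPS (0.709 ± 0.105, adjusted p = 2.1e-05), where the iPS mean of 174.4 was just above background. In the 5 mGS groups it was lower than in GS, with log2 differences of −0.991 to −0.797 (adjusted p 5e-07 to 6.2e-06). Outside GS, 7 lines had Msh5 above background, at 163.6 to 183.1 against a background level of 161.1, and 0 had Msh4. With so narrow a margin, and intensities not comparable between genes, a difference in presence between the partners is not shown.

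Mlh3 is a subunit of an endonuclease that resolves intermediates into crossovers, and it also has a role in mismatch repair outside meiosis. Against GS it was the gene of the set that was called higher in mGS groups, while between the routes its differences had the signs of those of Zcwpw1 and Hormad2. Mlh3 (chromosome 12, 85234466 to 85270647) stood at 701 and 589 in spontaneous mGS. Among the routes it was 741.3, 741.4 and 700 (Dnmt mGS), 755, 468 and 572 (Dmrt mGS), 512, 330 and 336 (Sox2 mGS) and 485, 372 and 650 (Oct4 mGS). Outside the mGS lines it was 330, 322 and 365 in GS, 741, 672 and 546 in iPS, and 719.6, 642.5 and 724.5 in ES R1, B6-6 and BRC1. GS lines lay below every line outside Sox2 mGS, and Sox2 mGS 2 and 3 lay within the GS range.

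Mlh3 was 2.05-fold lower in GS than in ES (−1.04 ± 0.20, adjusted p = 0.00033) and 1.91-fold lower in GS than in iPS (−0.936 ± 0.2, adjusted p = 0.00076). It was 2.15-fold higher in Dnmt mGS than in GS (1.10 ± 0.20, adjusted p = 0.00018), 1.90-fold higher in spontaneous mGS (0.924 ± 0.223, adjusted p = 0.0027) and 1.73-fold higher in Dmrt mGS (0.793 ± 0.2, adjusted p = 0.0034). In Oct4 mGS it was 1.44-fold higher than in GS (0.531 ± 0.2, adjusted p = 0.039), but this call was lost without GS 1, GS 2, GS 3, Oct4 mGS 1 or Oct4 mGS 3 (0.326 to 0.585, adjusted p 0.054 to 0.2), and after quantile normalization (0.492, adjusted p = 0.07) or centring on array medians (0.464, adjusted p = 0.092). In Sox2 mGS minus GS it was 0.183 (−0.237 to 0.602, adjusted p = 0.49).

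Sox2 mGS also had 1.69-fold less Mlh3 than iPS (−0.753 ± 0.2, adjusted p = 0.013). That call was lost without iPS 1, Sox2 mGS 2 or Sox2 mGS 3 (−0.656 to −0.643, adjusted p 0.054 to 0.064) and with the feeder score as a covariate (−0.384, adjusted p = 0.36).

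In the comparisons with iPS as a whole, which share the 3 iPS lines, few of the 9 genes passed. Spontaneous mGS against iPS had 0 of 9 by limma, where 0% of all genes passed, and 1 of 9 at an unadjusted p under 0.05. Dnmt mGS against iPS had 2 of 9, both higher, where 6.87% passed (4.18% higher, 2.68% lower). Dmrt mGS against iPS had 1 of 9, where 0.848% passed, and Oct4 mGS against iPS had 2 of 9, 1 higher and 1 lower and both at background, where 13.8% passed (10.4% higher, 3.43% lower). Sox2 mGS against iPS had 3 of 9, 1 higher and 2 lower, where 23.6% passed (14.4% higher, 9.22% lower), and of these Mei1 and Msh4 were at background. In iPS against ES 0 of 9 passed by limma and 3 at an unadjusted p under 0.05, where 0.627% of all genes passed.

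Each induced route was then set against the equal-weighted mean of the other 3 routes, which tests the difference between routes itself. Dnmt mGS had 3 of 9 genes higher, where 19.2% of all genes passed (8.85% higher, 10.4% lower). Zcwpw1 was 2.41-fold higher (1.27 ± 0.21, adjusted p = 0.002), Hormad2 at least 2.58-fold higher (2.10 ± 0.44, adjusted p = 0.0065) and Mlh3 1.52-fold higher (0.601 ± 0.163, adjusted p = 0.02). Sox2 mGS had the same 3 genes lower, where 14.2% of all genes passed (5.99% higher, 8.16% lower). Zcwpw1 was 3.28-fold lower (−1.71 ± 0.21, adjusted p = 0.00022), Hormad2 at least 1.2-fold lower (−1.87 ± 0.44, adjusted p = 0.011) and Mlh3 1.54-fold lower (−0.626 ± 0.163, adjusted p = 0.018). These comparisons share lines with each other, so the opposite signs are not independent. Dmrt mGS had 0 of 9 by limma (1 at an unadjusted p under 0.05), where 0.316% passed, and Oct4 mGS had 0 of 9 (1 at an unadjusted p under 0.05), where 1.06% passed (0.813% higher, 0.251% lower).

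The feeder score also differed between routes, most clearly in Sox2 mGS. Against the other routes, limma called 0 of the 8 fibroblast markers in Dnmt mGS, where 19.2% of all genes passed. In Sox2 mGS it called 1, higher, where 14.2% passed. The 8 fibroblast markers were all above background in each of the 4 routes, and the score of 1860 to 2670 in Sox2 mGS exceeded the 338 to 1640 of Dnmt mGS in every line. Pluripotency markers differed between routes too. Of 8, limma called 3 higher in Dnmt mGS and 4 lower in Sox2 mGS (8.85% and 8.16% of all genes). Their geometric means were 3330 to 4360 and 1210 to 2140. In Dmrt mGS and Oct4 mGS it called 0 (0.316% and 1.06% passed), with means of 2660 to 3760 and 1470 to 3660. The part of this difference in Zcwpw1, Hormad2 and Mlh3 was not tested. With the feeder score as a covariate, Zcwpw1 still passed in Dnmt mGS (1.17, adjusted p = 0.0066) and in Sox2 mGS (−1.56, adjusted p = 0.0026). Hormad2 passed in Dnmt mGS (1.65, adjusted p = 0.015) but not in Sox2 mGS (−1.17, adjusted p = 0.13), and Mlh3 passed in neither (0.489, adjusted p = 0.061 in Dnmt mGS and −0.454, adjusted p = 0.17 in Sox2 mGS). Within Dnmt mGS, the line labelled Dnmt mGS 2, with a score of 338, had Zcwpw1 at 1252, Hormad2 at 668.5 and Dmc1 at 799.6. Line 1, with a score of 723, had 999, 328 and 587, and line 3, with a score of 1640, had 1091, 328 and 441. All 3 genes were highest in the line with the lowest score. Between lines 1 and 3, Zcwpw1 was lower and Dmc1 higher in the line with the lower score, and Hormad2 did not differ. These lines also differed in Dnmt1, at 620, 2752 and 647 in Dnmt mGS 1 to 3. The part of feeder cells in these levels was not tested. Single lines also mattered: Hormad2 in Sox2 mGS was lost without Sox2 mGS 3 (−1.77, adjusted p = 0.081), and Mlh3 was lost without Dnmt mGS 1 or 2 (0.587 each, adjusted p = 0.1 and 0.075) in Dnmt mGS and without Sox2 mGS 2 or 3 (−0.516 and −0.529, adjusted p = 0.11 and 0.14) in Sox2 mGS. In a limma fit of only the groups compared, Mlh3 also missed the threshold in Dnmt mGS (adjusted p = 0.068) and in Sox2 mGS (adjusted p = 0.074).

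**Figure D3:**
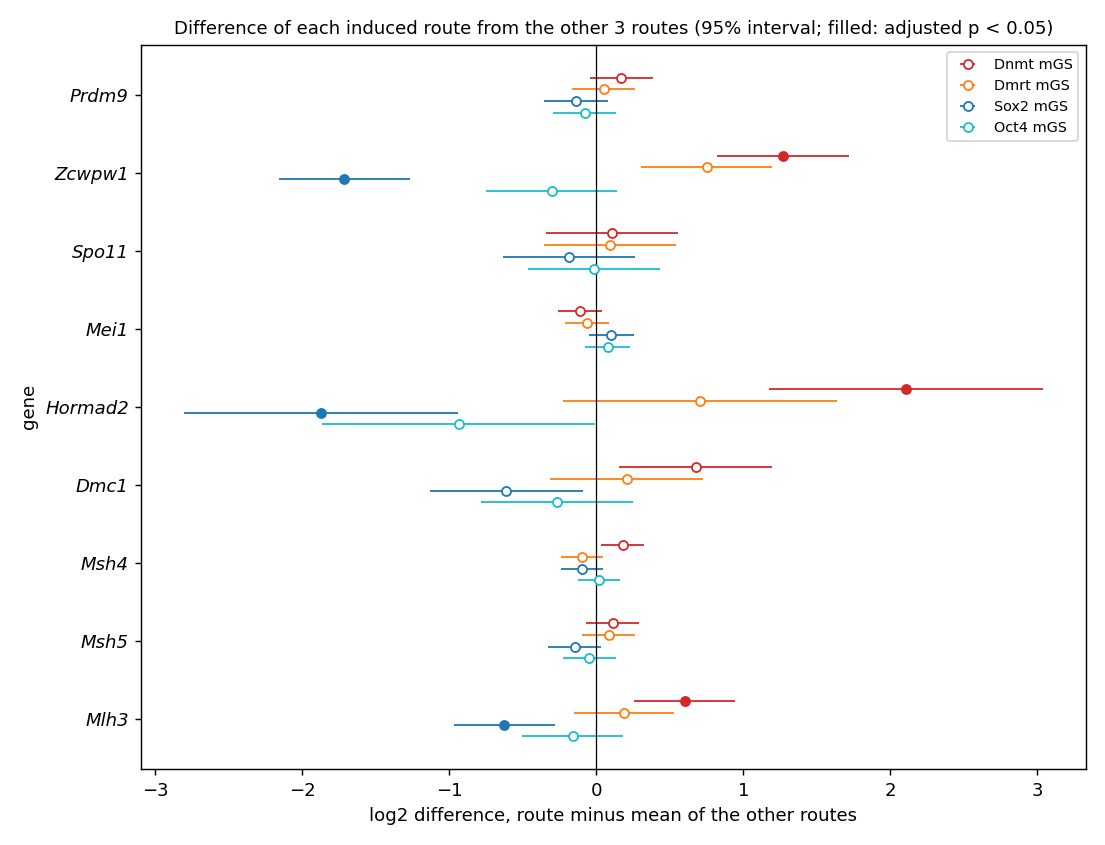
Log2 difference of each induced route minus the mean of the other 3 routes for the 9 genes (points) with 95% intervals (lines), filled where limma's adjusted p was under 0.05. Zcwpw1, Hormad2 and Mlh3 are filled to the right in Dnmt mGS (1.27, 2.10 and 0.601) and to the left in Sox2 mGS (−1.71, −1.87 and −0.626).

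**Figure D4:**
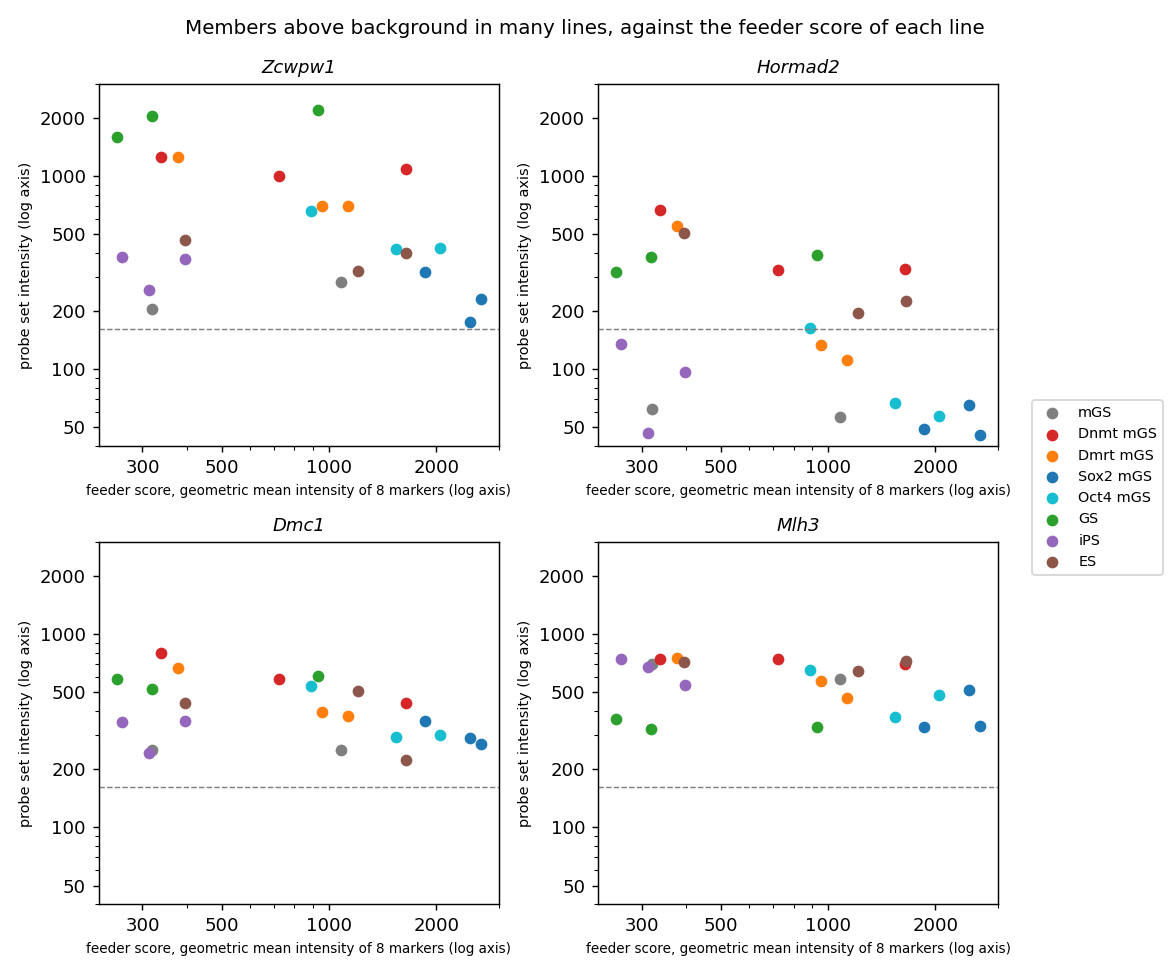
Intensity of Zcwpw1, Hormad2, Dmc1 and Mlh3 in each line (log axis) against the feeder score of that line (geometric mean intensity of 8 fibroblast markers, log axis), coloured by group, with the background level dashed. Sox2 mGS lines lie at the right (1860 to 2670), while iPS lines lie at the left (263 to 396) with Zcwpw1 at 257 to 382.

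Within Dnmt mGS, the line labelled Dnmt mGS 2, with Dnmt1 at 2752, had the highest Zcwpw1, Hormad2 and Dmc1 of the route, at 1252, 668.5 and 799.6. The lines with Dnmt1 at 620 and 647 had Zcwpw1 at 999 and 1091, Hormad2 at 328 in both, and Dmc1 at 587 and 441. Dmrt mGS 1, with Dnmt1 at 2772, had Zcwpw1 at 1245, Hormad2 at 548 and Dmc1 at 667, near the Dnmt mGS lines.

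Zcwpw1, Hormad2 and Dmc1 went together from line to line once GS was set aside. Over the 20 lines outside GS, Pearson's r of log2 levels was 0.788 for Zcwpw1 and Hormad2, 0.801 for Zcwpw1 and Dmc1, and 0.792 for Hormad2 and Dmc1, while Hormad2 and Mlh3 had 0.68. These are descriptions, since lines of a route share a treatment and a feeder range. Among the 14291 genes with a group mean above background, the genes most like each one over the 23 lines were Rec114 for Hormad2 (r = 0.938), a partner of Mei4 in break formation, Znfx1 for Zcwpw1 (0.938) and Smg1 for Dmc1 (0.876). Mlh3 was most like Rfx2 (0.973) and Esrrb (0.959), the second a pluripotency factor. These values include the GS lines, where the group mean was lowest for Mlh3 and highest for Zcwpw1. The part of that split in the correlations was not tested. For Spo11, Mei1 and Msh4, at background in the 20 lines outside GS, a correlation over 23 lines restates the split between GS and the rest, and none is given: Spo11 and Msh4 had 0.967 over 23 lines and 0.38 over the 20.

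Promoter sequence is shown for Zcwpw1, Hormad2 and Dmc1, which were above background in all 3 Dnmt mGS lines, and for the MutSγ pair, of which Msh4 was at background in every line outside GS and Msh5 close to it. Zcwpw1 and Dmc1 were above background in all 23 lines, as was Mlh3, whose promoter is not printed. Windows are the 250 bases before a transcript start, on the gene's strand, 5′ to 3′, from RefSeq on GRCm38.p6, and capitals mark CpG dinucleotides, the sites of DNA methylation. They lie at chr5:137787081-137787330 (plus strand, Zcwpw1), chr11:4441083-4441332 (minus strand, Hormad2), chr15:79605110-79605359 (minus strand, Dmc1), chr3:153904892-153905141 (minus strand, Msh4) and chr17:35046623-35046872 (minus strand, Msh5).
Zcwpw1: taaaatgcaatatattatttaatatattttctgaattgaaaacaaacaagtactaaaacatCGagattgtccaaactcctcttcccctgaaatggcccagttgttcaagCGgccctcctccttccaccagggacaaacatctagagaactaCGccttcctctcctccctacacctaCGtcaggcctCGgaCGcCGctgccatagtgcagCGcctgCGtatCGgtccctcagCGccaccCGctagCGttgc
Hormad2: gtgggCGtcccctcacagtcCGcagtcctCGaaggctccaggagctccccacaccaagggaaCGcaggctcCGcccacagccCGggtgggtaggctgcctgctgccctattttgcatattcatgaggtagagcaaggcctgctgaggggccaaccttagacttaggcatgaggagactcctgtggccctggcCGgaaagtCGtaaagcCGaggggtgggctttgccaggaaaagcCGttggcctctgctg
Dmc1: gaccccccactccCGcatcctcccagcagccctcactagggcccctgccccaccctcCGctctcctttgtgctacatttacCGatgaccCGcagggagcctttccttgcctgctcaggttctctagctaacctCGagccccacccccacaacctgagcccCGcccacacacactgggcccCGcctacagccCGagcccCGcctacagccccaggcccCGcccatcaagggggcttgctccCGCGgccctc
Msh4: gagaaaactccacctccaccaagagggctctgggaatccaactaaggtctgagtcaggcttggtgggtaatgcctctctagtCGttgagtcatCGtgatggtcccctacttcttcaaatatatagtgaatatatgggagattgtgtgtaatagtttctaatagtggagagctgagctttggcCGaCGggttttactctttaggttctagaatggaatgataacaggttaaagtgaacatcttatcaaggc
Msh5: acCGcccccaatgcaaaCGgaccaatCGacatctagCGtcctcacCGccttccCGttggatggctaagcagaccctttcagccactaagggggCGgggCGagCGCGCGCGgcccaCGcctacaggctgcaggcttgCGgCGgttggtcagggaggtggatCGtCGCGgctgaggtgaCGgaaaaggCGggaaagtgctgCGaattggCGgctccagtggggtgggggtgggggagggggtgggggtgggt
These windows hold 13, 10, 12, 4 and 22 CpGs, in the same order, and 31.5%, 37.8%, 33.5%, 62.2% and 14.8% of the 32851 promoter windows of the table hold at least as many, the median window holding 6. A second window of Zcwpw1, not printed, holds 16. The Msh4 window lies inside the annotated span of its gene, which ends at 153906138, and that of Mei1 inside its own, so these windows may not be the starts used in germ cells. Of the 9 genes, 8 had a window, in 11 windows all told. The E-box CACGTG, which reads the same on both strands, was in 0 of these 11 windows and in 6.02% of all windows. The E2F-type motif TCCCGC, searched on both strands, was in 4 of the 11 windows, those of Prdm9 (both), Dmc1 and Msh5, and in 16.9% of all windows. No methylation was measured here.

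The wider machinery was described through 3 lists of recombination genes. Of 10 measured break-formation and hotspot genes, 6 were higher and 0 lower in GS than in ES (26% and 17.2% of all genes), and 7 higher and 1 lower in GS than in iPS (35.5% and 18.5% of all genes). Iho1, which binds the Hormad proteins and recruits the break machinery, was at least 2.91-fold higher in GS than in ES (2.17 ± 0.19, adjusted p = 4e-08). Cxxc1, a subunit of a histone methyltransferase complex that binds Prdm9, averaged 2179 in GS and 799.9 in ES (1.45 ± 0.11, adjusted p = 5.6e-09). Rec114, which with Mei4 forms a platform for Spo11, averaged 672.3 in GS and 170.3 in iPS (1.98 ± 0.58, adjusted p = 0.0083). In the mGS groups against GS, 7 to 9 of these 10 genes were lower and 0 were higher, where 22.6% to 30% of all genes were lower.

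Among 15 measured crossover genes, 8 were higher and 2 lower in GS than in ES (26% and 17.2% of all genes). The 8 include Hfm1 (113.6 against 62.4), at background on both sides and not read as a change. Tex11, an X-linked crossover factor, averaged 3045 in GS and 279.5 in ES (3.45 ± 0.21, adjusted p = 5.3e-10). Shoc1, a protein of the same pathway, averaged 851.7 in GS and 68.8 in ES, at least 5.29-fold higher (3.63 ± 0.35, adjusted p = 1.3e-07). Both were lower than GS in all 5 mGS groups, with Tex11 at least 18.9-fold lower in spontaneous mGS (−4.66 ± 0.24, adjusted p = 5.5e-11).

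The 18 measured genes of end resection and strand exchange were mixed, with 2 higher and 4 lower in GS than in ES (26% and 17.2% of all genes). Tex15, needed in mouse for loading Dmc1, averaged 2566 in GS and 440 in ES (2.54 ± 0.35, adjusted p = 9.3e-06), whereas Hsf2bp, a Brca2 partner, averaged 559.5 in GS and 1459 in ES (−1.38 ± 0.47, adjusted p = 0.025). Most genes of this list, such as Brca2 and Rad50, also repair breaks in dividing somatic cells. The median log2 difference of the list was 0.092 in GS minus ES, next to 0.091 over all genes.

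Between routes, the lists differed. In Dnmt mGS against the other routes, where 8.85% of all genes were higher and 10.4% lower, 2 of 10 break-formation genes were higher and 2 lower, 8 of 18 strand-exchange genes higher and 1 lower, and 3 of 15 crossover genes higher and 0 lower. The 8 include Meiob (84.0 against 30.7) and Mcmdc2 (115.5 against 78.4), at background on both sides and not read as a change. The list medians were −0.132, 0.375 and 0.172, against −0.057 over all genes. Rec114 averaged 573.7 in Dnmt mGS and 107.2, at background, in the other routes, at least 3.56-fold higher (adjusted p = 0.0045), and Dmrt mGS 1, at 757.7, lay within the Dnmt mGS range. Shoc1 averaged 264 in Dnmt mGS and 67.5, at background, in the other routes, at least 1.64-fold higher (adjusted p = 0.0011), with Dmrt mGS 1 again in the Dnmt mGS range. Hormad1 averaged 1732 in Dnmt mGS and 798.7 in the other routes (1.12 ± 0.35, adjusted p = 0.037), with overlapping lines, and Brca2 averaged 1917 and 1008 (0.927 ± 0.147, adjusted p = 0.0017), with none. In Sox2 mGS against the other routes, where 5.99% of all genes were higher and 8.16% lower, 2 of 10, 6 of 18 and 3 of 15 genes were lower and 0 were higher, with list medians of −0.013, −0.371 and −0.269, against 0.015 over all genes. The 3 crossover genes include Shoc1 (59.0 against 111.3), at background on both sides and not read as a change. The feeder score of 1860 to 2670 in Sox2 mGS stood beside these counts, and its part in them was not tested. Rec114 averaged 67.6, at background, in Sox2 mGS and 218.7 in the other routes, at least 1.36-fold lower (adjusted p = 0.025), with overlapping lines, and Hormad1 averaged 501.4 and 1207 (−1.27 ± 0.35, adjusted p = 0.025). Dmrt mGS and Oct4 mGS had 0 calls in the 3 lists against the other routes by limma, with 3 and 7 at an unadjusted p under 0.05.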

How the data were processed

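Linear intensities of 28856 probe sets on 46 arrays were analysed as deposited by the authors. The sources used here do not give the authors' summarisation and scaling. Assembly mm9 is named in the submitters' processing notes, and positions and promoters were taken from RefSeq on GRCm38.p6. A gelatin plating step preceded RNA extraction, to take out feeder cells, per the labels' protocols. Probe sets with 1 symbol (21789) were kept, and those with several (1621) or unnamed here (5446) left out, which gave 19938 genes, with the brightest probe set kept for the 999 genes that had several. Log2 was taken with no offset. The number of arrays limits the precision, and array medians lay between 215.4 and 264.8, the highest in culture 1 of Oct4 mGS 1, with the next at 242.5. The 2 cultures of a line correlated at 0.98 to 0.998, and 0 pairs of arrays held identical values.

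The 23 lines entered 1 limma fit (limma 3.58.1, R 4.3.3, lmFit and eBayes, 15 residual and 2.71 prior degrees of freedom) with Benjamini-Hochberg adjustment over all genes within each of 17 comparisons at 0.05. P-values measure the spread between lines. Where a group was at background, a fold is the brighter mean over the background level, given as "at least". The 9 genes, the other lists and the comparisons were chosen with earlier results of these data known. The text names all 9 genes, at most the 4 largest called changes per list and comparison, up to 3 genes most correlated with a member (none for those bright in GS alone or, like Msh5, near background elsewhere), and Dnmt1, Dmrt1 and marker genes that bear on a result.

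Alternatives took 46 arrays as independent, a random block for the line (with statmod 1.5.0), only the groups compared, quantile normalization, median centring, 64 added before log2, the 40% dimmest genes left out, a trend in eBayes, averaged probe sets, culture or line number as a replicate block, and each line left out in turn. The feeder covariate and leaving out culture 1 of Oct4 mGS 1 were chosen after seeing the data. The fit was tested on simulated data. Python 3.11.15 (numpy 2.4.6, pandas 2.3.3) wrote the tables, and matplotlib 3.10.9 drew the figures.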

Additional observations from a re-analysis of the deposited data

Results flagged for a closer look

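Among the 4 to 6 arrays of each group, 5 arrays stood apart from the rest in 72 combinations of gene and group by Dixon's criterion. At its 95% level this criterion marks some arrays by chance alone. The arrays are 2 cultures of each line and not independent, so that level is nominal. Culture 1 of Sox2 mGS 3 had Prdm9 at 74.4, against 82.6 to 87.7 on the other 5 arrays. Culture 1 of mGS 1 had Spo11 at 82.0, against 73.3 to 74.4 on the other 3 arrays, and culture 1 of Sox2 mGS 2 had Spo11 at 70.8, against 59.9 to 61.2. These 3 arrays differ within the background range. Culture 1 of GS 3 had Mei1 at 188.8, the lowest of the GS arrays, against 220.0 to 237.0 on the others, and it stayed above background. Culture 1 of Dnmt mGS 2 had Msh5 at 136.6, against 163.7 to 178.2 on the other arrays of the route.

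The induced routes differed from each other in 3 genes by limma's test of the route difference. Zcwpw1, the reader of Prdm9's histone marks, had a log2 difference of 1.269 in Dnmt mGS and −1.714 in Sox2 mGS from the mean of the other routes. Hormad2, the chromosome axis protein, had 2.104 in Dnmt mGS and −1.873 in Sox2 mGS. Mlh3, the crossover endonuclease subunit, had 0.601 in Dnmt mGS and −0.626 in Sox2 mGS.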

How the results depend on the processing

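Of 67 called differences of single genes, none reversed under any alternative: 780 of 820 values under the settings and 382 of 429 with a line left out stayed past the threshold, and the others kept their sign but missed it. Counts of genes passing, of 9, moved as follows, with smaller relative shifts of a count left out. Leaving out the 40% dimmest genes kept only Zcwpw1, Dmc1 and Mlh3 in the test, and the count became 2 in GS against ES, 3 in GS against iPS and in spontaneous mGS against GS, 2 in Dnmt, Dmrt, Sox2 and Oct4 mGS against GS, 1 in Dnmt mGS and Sox2 mGS against iPS and 0 in Oct4 mGS against iPS. With the feeder covariate, chosen after seeing the data, it was 5 in Sox2 mGS against GS, 2 in Dmrt mGS against iPS, 0 in Sox2 mGS and Oct4 mGS against iPS, 1 in iPS against ES and 1 in Sox2 mGS against the other routes. With 46 arrays as independent samples, which counts cultures as lines, it was, against iPS, 4 for Dnmt, 5 for Dmrt, 5 for Sox2 and 4 for Oct4 mGS, 2 in iPS against ES, 5 in Dnmt mGS against the other routes, and 1 in Dmrt mGS and 1 in Oct4 mGS against the other routes. With the line as a random block, and also with the culture number as a replicate block, it was 2 in Dmrt mGS against iPS, 1 in Oct4 mGS against iPS, 1 in iPS against ES and 1 in Dmrt mGS against the other routes. The line number as a replicate block gave 1 in Dnmt mGS against iPS and 0 in Dmrt mGS and Oct4 mGS against iPS. Deviations of 52 same-numbered pairs of lines correlated at −0.645 to 0.795 (median 0.085), and those of 179 other pairs at −0.832 to 0.752 (median 0.001). With 2 or 3 lines in a group, these values cannot tell whether the numbers pair lines. Correlations of 253 pairs by culture number ran from −0.438 to 0.389. Fitting only the groups compared gave 0 in Dmrt mGS and Oct4 mGS against iPS. Quantile normalization gave 2 in Dmrt mGS against iPS, median centring 2 in Dmrt mGS and 1 in Oct4 mGS against iPS, 64 added before log2 gave 1 in Oct4 mGS against iPS, and leaving out culture 1 of Oct4 mGS 1, chosen after seeing the data, gave 2 in Dmrt mGS against iPS. With each line left out, the counts against iPS ran from 1 to 4 for Dnmt, 0 to 1 for Dmrt, 1 to 3 for Sox2 and 0 to 3 for Oct4 mGS, and those against the other routes from 2 to 5 for Dnmt and 1 to 3 for Sox2 mGS. The cause of these changes was not tested. Low signal limits Prdm9 in all lines, and Spo11, Mei1 and Msh4 outside GS, where changes under the background level cannot be seen.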

Other observations

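Stra8, which the retinoic acid signal turns on at entry into meiosis, averaged 209.4 in GS and 100.8 in iPS, the second at background, so that GS had at least 1.3-fold more (log2 1.06 ± 0.17, limma's adjusted p = 6.6e-05). It averaged 154.7 in Dnmt mGS, also at background, against 209.4 in GS (−0.437 ± 0.174, adjusted p = 0.046), and the lines of these groups overlapped. Sycp3, a structural protein of the synaptonemal complex, averaged 105.3 in Dnmt mGS, at background, against 430.4 in GS, at least 2.67-fold lower (−2.03 ± 0.59, adjusted p = 0.009), while Hormad2 and Dmc1 did not pass in that comparison. In the line labelled Dnmt mGS 2, Sycp3 stood at 215.6, against 80.5 and 67.3 in Dnmt mGS 1 and 3. Within ES it stood at 824.5 in R1, 285.4 in B6-6 and 105.3 in BRC1, and R1 was also the ES line with the most Hormad2 and Zcwpw1. The 2 cultures of R1, of which culture 2 has a description naming another ES line, had Sycp3 at 788.9 and 861.7.

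The 2 cultures of a line differed by a median of 0.068 (Zcwpw1) to 0.151 (Mei1) on the log2 scale, and the widest gap of any gene of the set was 0.704, for Msh5 in iPS 5.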
